A study of Mus musculus with 15 samples.

Results

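The genes described here are 35 genes of lipid synthesis: 18 that make or carry cholesterol, 5 that regulate the pathway, and 12 that make, elongate or desaturate fatty acids. A gene was measured where a probe was annotated to its symbol and to no other. Of the 35 genes, 30 had a probe, each with 1, out of 12909 genes with a symbol on the array. Hmgcs1, Acat2, Pmvk, Scap and Insig1 had no such probe and were not analysed here. Lss had values on too few arrays to be tested, which left 29 tested genes, 14 of them with a value on all 15 arrays. The samples were total RNA of mouse alveolar macrophages, which live in the air sacs of the lung and clear particles and surfactant, in 3 groups of 5 arrays. Wild type samples came from b6+/+ mice, beta6 null samples from b6-/- mice, which lack the integrin beta6 subunit, and the third group from b6-/-TGFb+/+ mice, described as beta6 deficient and reconstituted with TGF-b1 (beta6 null with TGFb1). All 3 groups had received doxycycline, and no wild type group carried the TGFb1 genotype, so an effect of added TGFb1 and a return towards wild type cannot be told apart. Ages, the promoter behind the TGFb1 allele, and whether an array holds 1 animal or a pool are not given in the sources used here, so p-values measure the spread between arrays, which may be technical.

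Each value is a log2 ratio of a sample to a common macrophage reference RNA on a 2-colour array, after each array was centred on its median. Sample over reference is the likely direction, from the channel order and from Mmp12, a protease known for its rise in macrophages of this mouse. Were the ratio inverted, every sign below would turn. Since each probe is set against the reference, values of different genes are not levels that can be ranked. In these bulk samples, fewer cells of a type and less RNA per cell cannot be told apart.

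Cholesterol is built from acetyl-CoA through mevalonate, isoprenoid units, squalene and lanosterol, and fatty acids are built from the same acetyl-CoA through malonyl-CoA. Transcription of both branches is driven by the SREBP proteins, products of Srebf1 and Srebf2, which are held in the endoplasmic reticulum by INSIG proteins when sterols are plentiful. Sterol synthesis is known to lean on Srebf2 and fatty acid synthesis on Srebf1. SREBPs are known to act at promoters beside NF-Y, a factor that binds the CCAAT box. Alveolar macrophages take up and break down surfactant, so they handle large amounts of lipid and cholesterol.

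The promoters of the sterol genes shared a feature that the choice of genes did not use. Of the 14 sterol genes with a promoter in the RefSeq table (build GRCm38.p6), 13 (92.9%) held CCAAT, on either strand, in the 250 bases before a start site. This compares with 4 of 5 regulators (80%), 5 of 9 fatty acid genes (55.6%) and 37.5% of all 27025 genes in the table, or 39.5% of its 17491 protein-coding genes. Counting only the first listed start of each gene, the share was 85.7% of the sterol genes and 34.5% of all genes. A sterol regulatory element spelled TCACNCCAC, also searched on both strands, was found in 1 of the 14, Hmgcs1, and in 1.22% of all genes. These are matches of letters and not measured binding. The sterol genes not among the 14 are Stard4, Fdft1, Fdps and Sqle, whose promoters were not analysed here. The 5 stretches that follow belong to the analysed sterol genes and the regulator that held CCAAT and whose difference between beta6 null with TGFb1 and beta6 null had an unadjusted p under 0.05, so they can be read beside the values given further on. They run 5′ to 3′ on the strand of the gene, end before its start site, and capitals mark CCAAT or its reverse complement ATTGG. The Nsdhl stretch lies at chrX:72918397-72918520 (plus strand), Ebp at chrX:8193548-8193697 (minus), Tm7sf2 at chr19:6067878-6067912 (minus), Hsd17b7 at chr1:169969206-169969385 (minus) and Insig2 at chr1:121332599-121332740 (minus).
Nsdhl: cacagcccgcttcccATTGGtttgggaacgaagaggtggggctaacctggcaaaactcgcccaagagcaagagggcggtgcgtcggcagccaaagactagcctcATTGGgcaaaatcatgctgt
Ebp: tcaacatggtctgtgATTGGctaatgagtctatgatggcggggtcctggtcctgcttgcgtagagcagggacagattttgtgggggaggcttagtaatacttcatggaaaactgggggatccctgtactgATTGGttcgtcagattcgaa
Tm7sf2: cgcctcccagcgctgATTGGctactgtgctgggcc
Hsd17b7: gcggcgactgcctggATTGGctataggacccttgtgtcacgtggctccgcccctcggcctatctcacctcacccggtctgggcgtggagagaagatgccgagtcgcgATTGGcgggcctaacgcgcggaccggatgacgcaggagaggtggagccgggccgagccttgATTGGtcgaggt
Insig2: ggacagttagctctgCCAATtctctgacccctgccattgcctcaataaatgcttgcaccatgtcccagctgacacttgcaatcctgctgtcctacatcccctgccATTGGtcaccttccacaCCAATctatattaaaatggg
The Hsd17b7 and Insig2 stretches each hold 3 such boxes, those of Nsdhl and Ebp 2 each, and that of Tm7sf2 holds 1. No CCAAT was found before the other listed start sites of Insig2.

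Across the series, arrays held 11601 to 16469 values of 17207 probes and correlated with each other at 0.194 to 0.576. The broadest spread (SD 2.01 and 2.0) and the largest numbers of missing probes (5509 and 5606) belonged to wild type replicate 2 and beta6 null replicate 1. These 2 arrays held the lowest value of 7 and 9 of the 29 tested genes (24.1% and 31%, against 17.5% and 16.4% of all tested features). Of 10 general macrophage genes 7 had a probe and 4 a value on all 15 arrays, and a ratio to a macrophage reference cannot show that a marker is absent. The mean of those 4 lay between -0.21 and 0.43 on wild type arrays. It spanned -0.63 to -0.02 on beta6 null arrays and -0.12 to 0.75 with TGFb1. In beta6 null against wild type 2 of the 7 were above 0 (median -0.66), where 46.9% of all features were. With TGFb1 against beta6 null 5 of the 7 were (median 0.25), against 56.7% of all features. None of the 7 passed by limma. Of 17 alveolar macrophage markers 14 had a probe and 11 a value on all 15 arrays. The mean log2 ratio of those 11 lay between -1.51 and -0.39 on wild type arrays. It lay between -1.91 and -1.62 on beta6 null arrays and between -1.0 and -0.43 with TGFb1. This mean was lowest in beta6 null, where Fabp1 (-3.28) and Olr1 (-3.06) were furthest below wild type. Of the 14 markers, 11 were below 0 in beta6 null against wild type and 3 above, among them Fabp5 (2.09, adjusted p = 0.00026 by limma). With TGFb1 against beta6 null, 13 of the 14 had a difference above 0, as 56.7% of all features did. By limma 3 passed as higher (0.58% of all features) and 1 as lower (0.708% of all features passed in either direction). Markers of alveolar type 2 epithelium, a lung cell of high lipid synthesis, spanned -1.65 to 0.13, -1.56 to 0.69 and -0.83 to -0.05 (4 genes on all arrays), and these ranges overlapped. The 4 genes were Abca3, Napsa, Cldn18 and Epcam. Their differences in beta6 null against wild type were -0.25, 0.88, 0.77 and -2.34, so this mean joins opposite directions. Sftpc (2.18) and Slc34a2 (1.16) lacked a value on some arrays and are not in it. The 2 monocyte and dendritic cell genes on all arrays were Ly75 and Batf3, and their mean set wild type apart from both other groups. It spanned -0.55 to 0.06 on wild type arrays, -2.49 to -1.27 on beta6 null arrays and -1.35 to -0.63 with TGFb1. Ly75 alone kept wild type (-1.37 to 0.04) clear of beta6 null (-4.38 to -2.91). Batf3 overlapped between these groups, with a difference of -0.3 (adjusted p = 0.762 by limma), so the separation came from Ly75 and does not describe the list. Single genes of the lists for other cells passed by limma in beta6 null against wild type. S100a8 of the neutrophil list (2.12, adjusted p = 0.00148) and Sftpc of the type 2 list (2.18, adjusted p = 0.0458) were higher. Epcam of the type 2 list (-2.34, adjusted p = 0.0141), Krt19 of the airway epithelium list (-2.01, adjusted p = 0.0272) and Ly75 (-2.72, adjusted p = 0.00118) were lower. Above 0 were 6 of 10 tested type 2 genes (median 0.56), 3 of 4 airway genes (median 0.36) and 4 of 6 neutrophil genes (median 0.42). So were 5 of 7 monocyte and dendritic cell genes (median 0.61), while Ly75 and Batf3 were below 0. Over all features 46.9% were above 0. Epcam, Krt19 and Ly75 thus ran against most of their lists. With TGFb1 against beta6 null, Epcam (1.98, adjusted p = 0.0443) and Krt19 (2.37, adjusted p = 0.016) were higher, and Itgae, an integrin of dendritic and T cells, was lower (-3.89, adjusted p = 0.0332). In that comparison 3 of 10 type 2 genes (median -0.29) and 2 of 4 airway genes (median -0.31) were above 0. So were 1 of 6 neutrophil genes (median -0.8) and 3 of 7 monocyte and dendritic cell genes (median -0.45), against 56.7% of all features. Which cells these transcripts came from, and their part in the results on lipid genes, were not tested. The ratio of Xist, transcribed from the inactive X chromosome in females, lay between -4.14 and -2.37 on wild type arrays, between -2.46 and 0.88 on beta6 null arrays and between -3.48 and -2.27 with TGFb1. By limma Xist was 2.69 above wild type in beta6 null (adjusted p = 0.0446). With TGFb1 it was -2.67 from beta6 null (adjusted p = 0.0525). Fits with the Xist level as a covariate therefore cannot fully tell its level and the group apart. The labels give no sex, and a part of sex in the group differences was not tested.

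In the sterol branch 1 gene passed. Stard4, a soluble carrier of sterols between membranes, was 4.69-fold higher in beta6 null with TGFb1 than in beta6 null, and was the only one of the 29 genes past an adjusted p of 0.05 in any of the 3 comparisons. In wild type its log2 ratios were -1.75, -1.52, -0.35, -1.0 and -0.12. In beta6 null they were -2.12, -2.10, -2.11, -2.31 and -2.21. With TGFb1 they were 0.26, -0.41, 0.43, 0.19 and -0.18. The 5 beta6 null arrays lay close together and below every array of both other groups, while the wild type arrays were spread and the upper ones reached into the range with TGFb1.

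The Stard4 difference between beta6 null with TGFb1 and beta6 null was 2.23 (SE 0.32, adjusted p = 0.00494 by limma), and it was 2.23 within the arrays whose title ends in 1 (3 against 4 arrays) and 2.26 within those whose title ends in 2 (2 arrays against 1). It passed without each array in turn (adjusted p 0.00296 to 0.0201 by limma). It did not pass after quantile normalization (2.05, adjusted p = 0.0621), after the arrays were given equal spread (2.09, adjusted p = 0.0729), or when the Xist level entered as a covariate (2.39, adjusted p = 0.279), a fit in which 0 of all tested features passed. Beta6 null minus wild type was -1.22 for Stard4 (SE 0.32, adjusted p = 0.104 by limma), and the groups did not overlap. Within the 2 title endings it was -0.52 (4 arrays against 2) and -1.72 (1 array against 3). It passed with array weights (-1.55, adjusted p = 0.00449) and among features measured on all 15 arrays (adjusted p = 0.0479). With TGFb1 minus wild type was 1.01 (SE 0.32, adjusted p = 0.761 by limma), and 1.71 and 0.54 within the title endings. The part of the cell type markers in these differences was not tested.

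**Figure D1:**
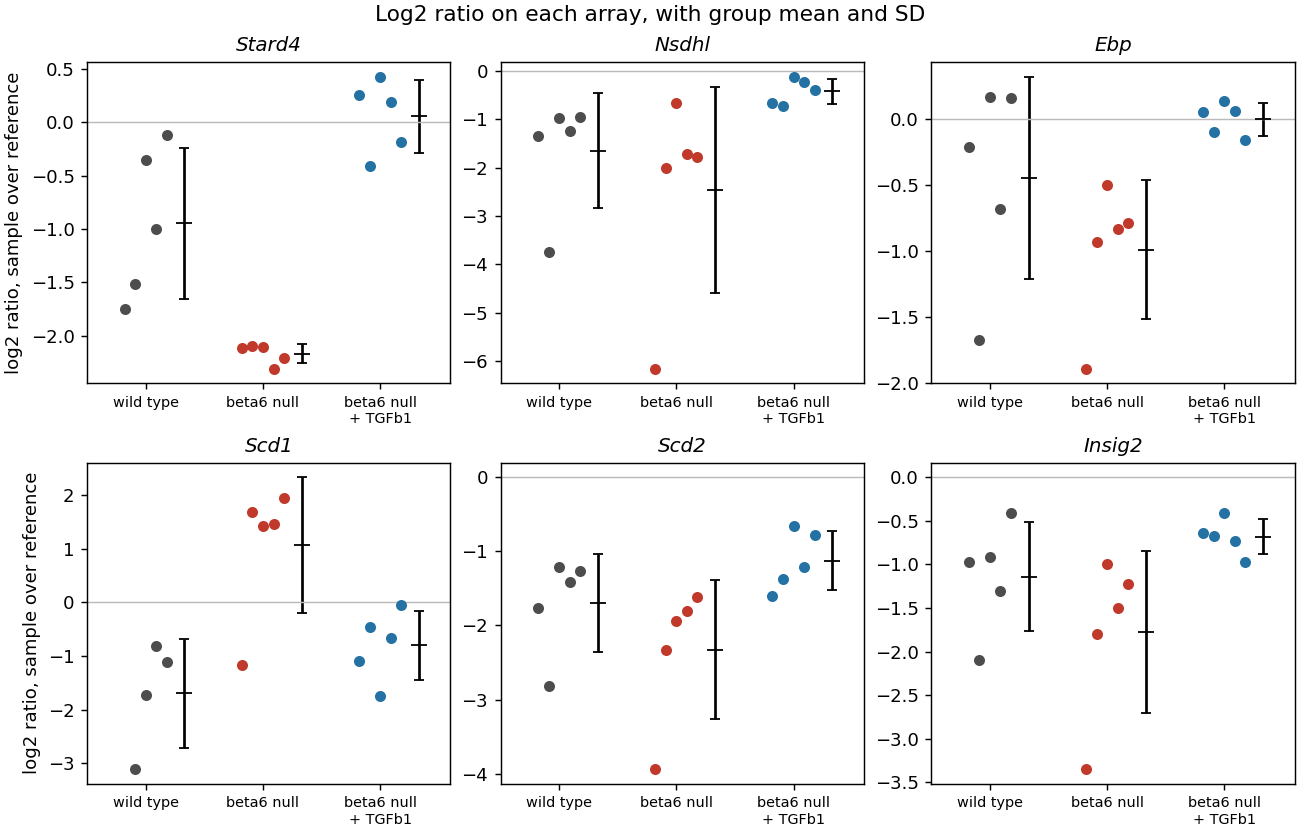
Log2 ratio (vertical axis, sample over reference) on each array for Stard4, Nsdhl, Ebp, Scd1, Scd2 and Insig2, by group (horizontal axis). Points are arrays and the bar beside them is the group mean with its SD. Stard4 in beta6 null sits between -2.31 and -2.10, below all other arrays, and Scd1 in beta6 null is above 0 on 4 of 5 arrays and on none of the others measured.

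Counted over all 29 tested genes, beta6 null with TGFb1 against beta6 null gave 1 called gene, which was higher, where 0.708% of all 13285 tested features passed in either direction and 0.58% passed as higher. At an unadjusted p under 0.05 by limma there were 10 genes higher and 1 lower, where 15% of all features reached that level and 11.1% did so as higher. Groups did not overlap for 6 genes, all higher with TGFb1 (8.24% of all features in either direction). Of the 29 genes, 23 (79.3%) had a difference above 0, with a median of 0.37, against 56.7% and a median of 0.12 over all features. Of the 14 tested sterol genes 13 were above 0 with a median of 0.73, and of the 12 fatty acid genes 8 were, with a median of 0.16. Without 1 array these medians ran from 0.57 to 0.92 and from 0.09 to 0.32. The difference between branches was not tested. Several of the 29 genes lie in 1 pathway and share arrays, so they are not independent counts.

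Beta6 null against wild type gave 0 called genes of 29 by limma, where 0.948% of all features passed. At an unadjusted p under 0.05 there were 2, Scd1 higher and Stard4 lower (11.5% of all features), and groups did not overlap for 2, Stard4 and Acaca, both lower in beta6 null (5.11% of all features). Differences were above 0 for 10 and below 0 for 19, with a median of -0.23 against -0.05 over all features. The sterol median was -0.27, with 10 of 14 below 0, and the fatty acid median -0.15, with 7 of 12 below 0. Leaving out 1 array moved the sterol median to between -0.39 and -0.08, the last without beta6 null replicate 1. The fatty acid median moved to between -0.38 and 0.11, and was above 0 without wild type replicate 4 or 5 or beta6 null replicate 1 or 4, so its direction was not stable. The counts of genes lie near the background shares.

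Beta6 null with TGFb1 against wild type gave 0 called genes by limma, as it did over all features (0% passed). At an unadjusted p under 0.05 there was 1, Stard4 (6.29% of all features), and groups did not overlap for Tm7sf2 and Nsdhl (2.87% of all features). Differences were above 0 for 24 of 29 genes, with a median of 0.44 against 0.07 over all features, and for 13 of 14 sterol genes. The sterol median was 0.48 (0.41 to 0.63 without 1 array). The fatty acid median was 0.50, but 0.04 without wild type replicate 2. The comparisons share arrays, so their directions are not separate evidence.

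**Figure D2:**
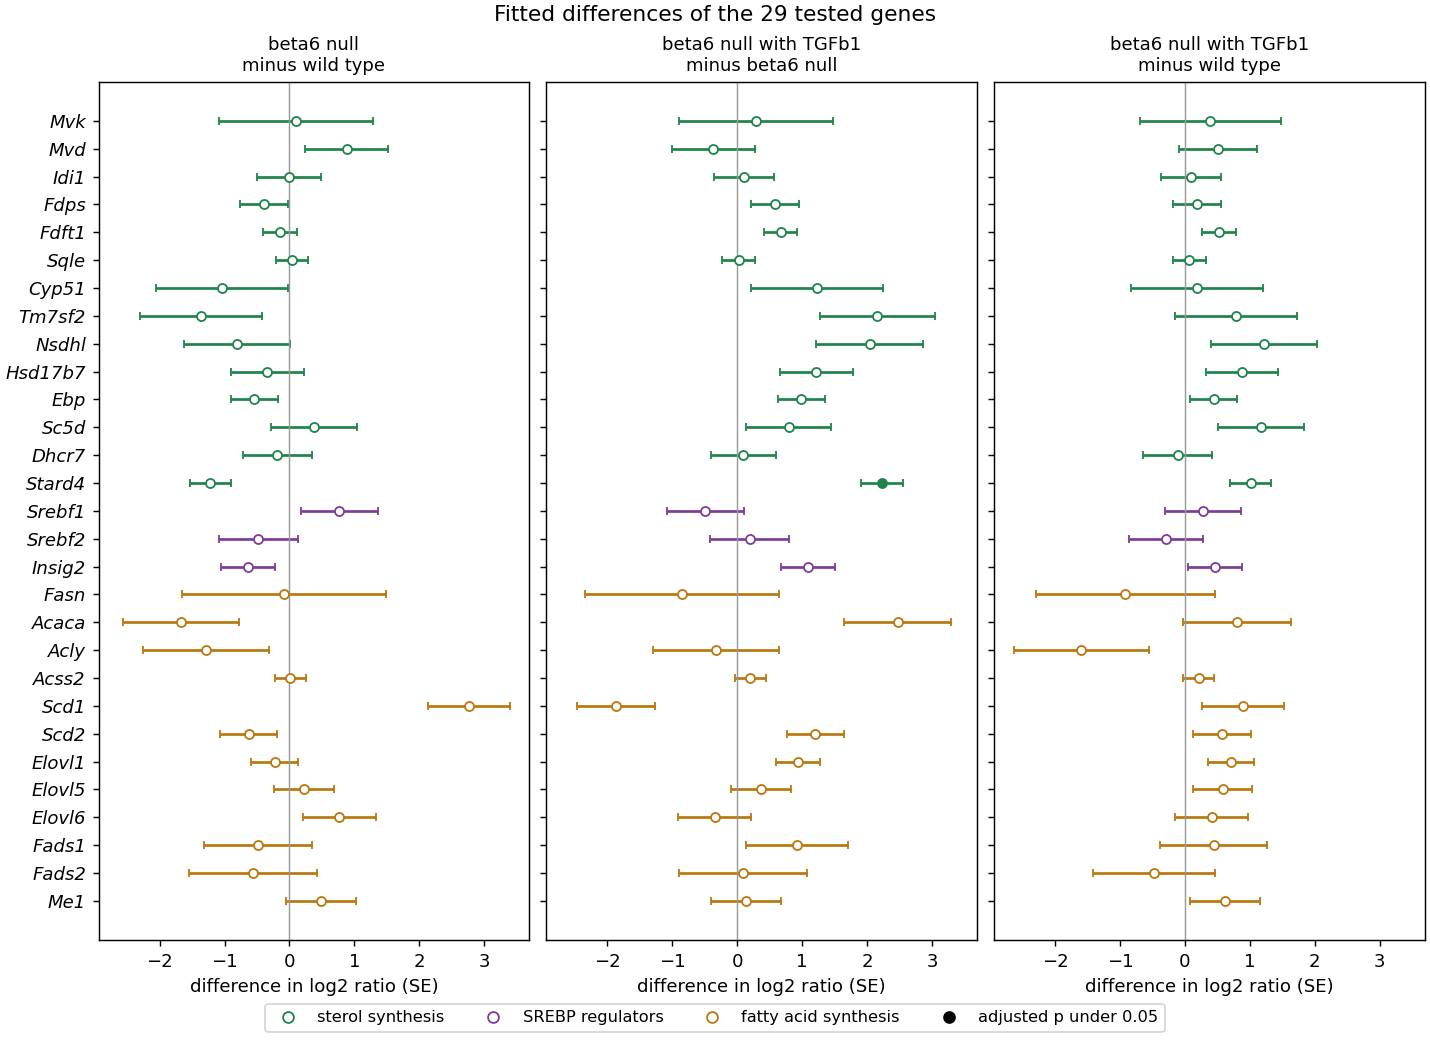
Difference in log2 ratio (horizontal axis) with its SE for each of the 29 tested genes (vertical axis), in 1 panel per comparison and coloured by branch. A filled point passed an adjusted p of 0.05. Only Stard4 in the middle panel is filled, and 13 of 14 sterol genes lie right of 0 in the middle and right panels.

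Of the early mevalonate enzymes, none separated the groups. Mvk, which phosphorylates mevalonate, had values on 4, 3 and 4 arrays and ran from -4.03 to 1.28 within wild type alone. Mvd, which decarboxylates the last mevalonate intermediate, averaged -0.45 ± 0.45 (SD, n = 5) in wild type and 0.06 ± 0.29 (n = 5) with TGFb1. In beta6 null its mean of 0.43 ± 1.84 (n = 4) held 1 array at 3.17 and 3 between -0.71 and -0.28. Idi1, the isomerase of isoprenoid units, averaged -0.94 ± 0.62 (n = 4), -0.95 ± 0.56 (n = 4) and -0.85 ± 0.83 (n = 5) in wild type, beta6 null and with TGFb1.

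None of the enzymes that lead to squalene and onwards to lanosterol passed. Fdps makes farnesyl pyrophosphate and averaged -0.15 ± 0.23, -0.54 ± 0.76 and 0.05 ± 0.56 (n = 5 each). Fdft1, squalene synthase, had log2 ratios of -0.72, -0.13, -0.42, -0.46 and -0.48 in beta6 null and -0.32, 0.09, 0.36, 0.32 and 0.70 with TGFb1, with a difference of 0.67 (SE 0.25, adjusted p = 0.216 by limma). All 5 beta6 null arrays were below 0 and 4 of 5 with TGFb1 were above, yet the ranges overlapped. Sqle, which oxidises squalene, averaged 0.16 ± 0.39, 0.21 ± 0.25 and 0.23 ± 0.25 (n = 5 each), and its difference between beta6 null with TGFb1 and beta6 null was 0.02 (SE 0.25). Lss, lanosterol synthase, had values on 2, 4 and 3 arrays, from -0.75 to 2.57, and was not tested.

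With TGFb1 against beta6 null, 4 enzymes that trim and rearrange the sterol rings after lanosterol reached an unadjusted p under 0.05 by limma. Their differences were 0.99 to 2.16, and none passed after adjustment. Over all features 11.1% reached that level as higher. Cyp51, Sc5d and Dhcr7, which also act after lanosterol, did not reach it. Tm7sf2, a sterol reductase, had log2 ratios of 0.67, 0.56, 0.61, 1.05 and 0.81 with TGFb1. In wild type it had -0.32, 0.11, -0.38 and 0.40 on the 4 arrays measured, and in beta6 null -5.89, -0.37, 0.31, -0.45 and -0.68. The arrays with TGFb1 were above all others, and 1 beta6 null array lay far below the rest. Its difference from beta6 null was 2.16 (SE 0.89, adjusted p = 0.272 by limma) and 1.04 without beta6 null replicate 1 and wild type replicate 2 (adjusted p = 0.048).

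Nsdhl, a dehydrogenase that acts in the removal of methyl groups, read -1.34, -3.75, -0.97, -1.24 and -0.95 in wild type. In beta6 null it read -6.15, -2.01, -0.66, -1.72 and -1.78, and with TGFb1 -0.66, -0.73, -0.12, -0.22 and -0.40. The arrays with TGFb1 were all above wild type, and their range overlapped that of beta6 null. The difference from beta6 null was 2.04 (SE 0.82, adjusted p = 0.259 by limma), and over the leave-one-out fits it ran from 1.12 to 2.49. With array weights Nsdhl passed (adjusted p = 0.0308), as did Fdft1 (adjusted p = 0.0325).

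Hsd17b7, a reductase of the same demethylation step, averaged -1.05 ± 1.30, -1.39 ± 0.74 and -0.17 ± 0.62 (n = 5 each) in wild type, beta6 null and with TGFb1. Its groups overlapped, and the difference with TGFb1 from beta6 null was 1.22 (SE 0.56, adjusted p = 0.325 by limma). Ebp, an isomerase of the sterol ring, read -0.21, -1.67, 0.17, -0.68 and 0.16 in wild type. In beta6 null it read -1.89, -0.93, -0.50, -0.83 and -0.79, and with TGFb1 0.05, -0.10, 0.14, 0.06 and -0.16. Every array with TGFb1 was above every beta6 null array, and wild type spanned both. The difference was 0.99 (SE 0.36, adjusted p = 0.208 by limma). Ebp and Nsdhl lie on the X chromosome. With the Xist level in the model, their differences with TGFb1 from beta6 null were 1.05 and 3.07 (adjusted p = 0.652 and 0.575 by limma).

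Cyp51, which removes a methyl group from lanosterol, was widely scattered, from -3.75 to 1.82 in wild type and from -5.07 to -0.10 in beta6 null. Sc5d, a sterol desaturase, averaged -2.07 ± 1.45, -1.70 ± 0.53 and -0.90 ± 1.15 (n = 5 each), with overlapping groups. Dhcr7, the last reductase before cholesterol, averaged 0.53 ± 0.41 (n = 4), 0.34 ± 1.30 (n = 5) and 0.43 ± 0.23 (n = 5), and its differences lay within 0.19 of 0. Over the 8 sterol genes with a value on all 15 arrays, the median log2 ratio of an array lay between -1.59 and -0.22 for wild type, between -2.06 and -0.58 for beta6 null and between -0.57 and 0.16 with TGFb1. All 5 arrays with TGFb1 were above the 5 beta6 null arrays on this median, the closest pair lying at -0.57 and -0.58.

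**Figure D3:**
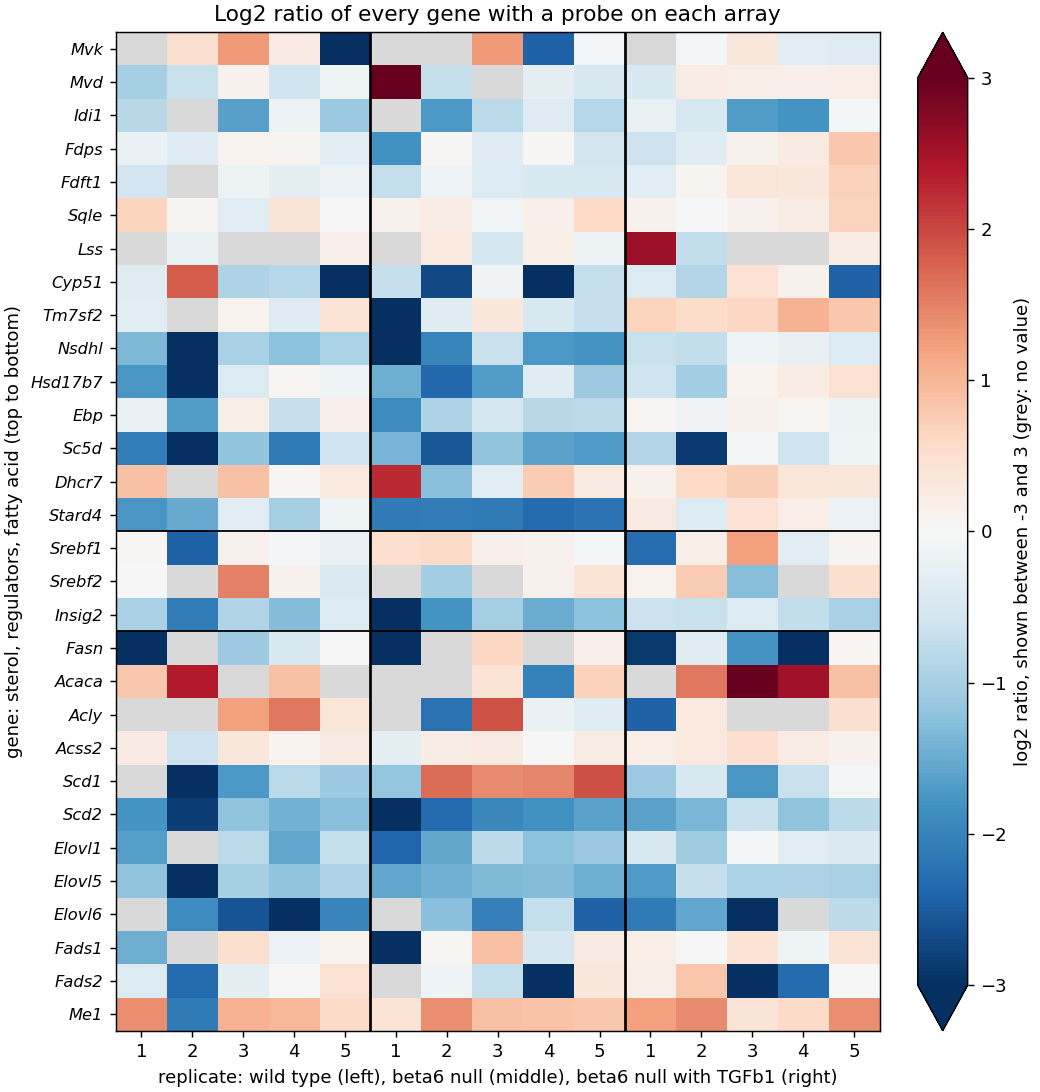
Log2 ratio (colour, shown between -3 and 3, grey where an array gave no value) of the 30 genes with a probe, in rows ordered as sterol, regulators and fatty acid genes, on the 15 arrays in columns. Low sterol values are seen in beta6 null and on wild type replicate 2, and Stard4 has its 5 lowest values in beta6 null.

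Of the regulators, the 2 SREBP genes did not separate the groups. Srebf1 averaged -0.50 ± 1.08, 0.26 ± 0.26 and -0.23 ± 1.29 (n = 5 each), with low arrays at -2.42 in wild type and -2.29 with TGFb1. Srebf2 averaged 0.31 ± 0.85 (n = 4), -0.17 ± 0.77 (n = 3) and 0.02 ± 0.90 (n = 4). Insig2, which helps to hold SREBPs in the endoplasmic reticulum, read -0.97, -2.10, -0.91, -1.31 and -0.41 in wild type. In beta6 null it read -3.35, -1.80, -1.0, -1.50 and -1.23, and with TGFb1 -0.64, -0.67, -0.41, -0.73 and -0.97. The arrays with TGFb1 were all above beta6 null, the closest pair lying at -0.97 and -1.0, and overlapped wild type. The difference was 1.09 (SE 0.42, adjusted p = 0.229 by limma).

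In the fatty acid branch, Scd1 and Scd2 had differences of opposite sign in beta6 null against wild type and with TGFb1 against beta6 null, and of the same sign with TGFb1 against wild type (0.89 and 0.57). None passed. Both encode stearoyl-CoA desaturases, which make monounsaturated from saturated fatty acids. Scd1 read -3.11, -1.72, -0.82 and -1.12 on the 4 wild type arrays measured. In beta6 null it read -1.16, 1.68, 1.42, 1.47 and 1.94, and with TGFb1 -1.10, -0.45, -1.74, -0.66 and -0.05. In beta6 null 4 arrays were above every other array and replicate 1 lay among the wild type values.

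Scd1 in beta6 null was 2.76 above wild type (SE 0.63, adjusted p = 0.0652 by limma), and with TGFb1 it was -1.87 from beta6 null (SE 0.60, adjusted p = 0.162). Neither passed on all 15 arrays. Without beta6 null replicate 1 both did, at 3.32 (adjusted p = 0.00459) and -2.43 (adjusted p = 0.0371). The first also passed after quantile normalization (3.06, adjusted p = 0.0299), with equal spread (2.96, adjusted p = 0.0385) with array weights (2.81, adjusted p = 0.000932) and, just under the threshold, with the title suffix as a block (3.31). Over all alternatives its adjusted p ran from 0.000932 to 0.735. With the Xist level in the model the 2 differences were 1.83 (adjusted p = 0.735) and -0.84 (adjusted p = 0.834).

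Scd2 read -1.77, -2.82, -1.21, -1.42 and -1.26 in wild type. In beta6 null it read -3.94, -2.33, -1.94, -1.81 and -1.61, and with TGFb1 -1.60, -1.38, -0.66, -1.21 and -0.78. Arrays with TGFb1 were all above beta6 null, though the closest pair lay at -1.60 and -1.61. The difference was 1.20 (SE 0.44, adjusted p = 0.212 by limma), while beta6 null was -0.63 from wild type (SE 0.44).

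Acaca, acetyl-CoA carboxylase, had the largest fitted difference of the 29 genes between beta6 null with TGFb1 and beta6 null, on few arrays. It read 0.82, 2.38 and 0.87 in wild type, 0.40, -2.02 and 0.68 in beta6 null, and 1.59, 3.67, 2.52 and 0.87 with TGFb1. The beta6 null values were below those of both other groups. The difference was 2.47 (SE 0.83, adjusted p = 0.205 by limma), and beta6 null minus wild type was -1.67 (SE 0.89, adjusted p = 0.502 by limma). Fasn, fatty acid synthase, ranged from -4.79 to 0.61 within beta6 null and from -5.96 to 0.06 with TGFb1, and its differences had SEs of 1.38 to 1.57.

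The enzymes that supply acetyl-CoA and reducing power did not separate the groups. Acly, which splits citrate, averaged 1.06 ± 0.63 (n = 3), -0.23 ± 1.70 (n = 4) and -0.55 ± 1.62 (n = 3). Acss2, which activates acetate, averaged 0.07 ± 0.40, 0.08 ± 0.23 and 0.28 ± 0.14 (n = 5 each). Me1, the cytosolic malic enzyme, averaged 0.38 ± 1.43, 0.87 ± 0.35 and 1.0 ± 0.49 (n = 5 each), with wild type replicate 2 at -2.12.

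Among the elongases, Elovl1, which lengthens very long chains, averaged -1.19 ± 0.49 (n = 4), -1.41 ± 0.60 (n = 5) and -0.48 ± 0.37 (n = 5). Its difference with TGFb1 from beta6 null was 0.93 (SE 0.34, adjusted p = 0.212 by limma), with overlapping ranges. Elovl5, an elongase of polyunsaturated chains, had differences of 0.22, 0.37 and 0.58 in the 3 comparisons (SE 0.46 each), and Elovl6, an elongase of saturated chains, of 0.77, -0.35 and 0.41 (SE 0.56 each). Fads1 and Fads2, desaturases of polyunsaturated fatty acids, had 1 far-off array each in beta6 null (-4.39 and -3.79), and their differences were at most 0.92 in size.

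Genes around the pathway were read from lists beside the 35. Of 12 further sterol enzymes and receptors, 4 were measured and none passed by limma. At an unadjusted p under 0.05 there were 0 in beta6 null against wild type (11.5% of all features). There were 2 between beta6 null with TGFb1 and beta6 null (15%) and 3 with TGFb1 against wild type (6.29%). Msmo1, the methylsterol oxidase that works with Nsdhl and Hsd17b7, averaged -1.79 ± 0.85, -1.91 ± 0.70 and -0.58 ± 0.23 (n = 5 each) in the order wild type, beta6 null and with TGFb1. All 5 arrays with TGFb1 were above the other 10, and the difference from beta6 null was 1.34 (SE 0.41, adjusted p = 0.144 by limma). It passed with array weights (1.59, adjusted p = 0.00342) and without wild type replicate 2 (adjusted p = 0.0424). Cyb5a, an electron carrier that also serves these oxidases, differed by 1.19 (SE 0.38, adjusted p = 0.160), its reductase Cyb5r3 by 0.71 (SE 0.36, adjusted p = 0.372) and Ggps1, which makes geranylgeranyl pyrophosphate, by -0.09 (SE 0.57).

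Of 12 tested genes of LXR and cholesterol efflux, 1 passed in beta6 null against wild type, where 0.948% of all features did. At an unadjusted p under 0.05 by limma, 1 was higher and 3 were lower in that comparison (11.5% of all features). Between beta6 null with TGFb1 and beta6 null 4 were higher and 0 lower (15%). With TGFb1 against wild type 2 were higher and 0 lower (6.29%). Scarb1, a lipoprotein receptor that also moves cholesterol out of cells, fell by 1.18 in beta6 null (SE 0.26, adjusted p = 0.0454 by limma), from 0.67 ± 0.29 to -0.50 ± 0.15 (SD, n = 5 each). With TGFb1 it averaged 0.63 ± 0.45 (n = 5), a difference from beta6 null of 1.13 (SE 0.26, adjusted p = 0.0604). The call of Scarb1 held in 5 of 27 alternatives and in 1 of the 15 fits that leave out an array, with an adjusted p of 0.0268 to 0.126 over the leave-one-out fits.

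Of 14 tested genes of esterification, storage and hydrolysis, 1 passed in beta6 null against wild type, where 0.948% of all features did. Groups did not overlap there for 2 higher and 3 lower genes (5.11% of all features). At an unadjusted p under 0.05 by limma, 2 were higher and 3 lower in that comparison (11.5%). Between beta6 null with TGFb1 and beta6 null 1 was higher and 2 were lower (15%). With TGFb1 against wild type 0 were higher and 1 was lower (6.29%). Cidec, a lipid droplet protein, fell by 1.35 in beta6 null (SE 0.25, adjusted p = 0.0217 by limma), from -1.27 ± 0.38 (n = 4) to -2.62 ± 0.25 (n = 5), and stood at -2.02 ± 0.07 (n = 5) with TGFb1. It is also 1 of the alveolar macrophage markers, and its call held in 19 of 26 alternatives. It was lost without wild type replicate 3 (adjusted p = 0.0777) or 5 (adjusted p = 0.0803), after quantile normalization (-0.83, adjusted p = 0.53) and with equal spread (-0.84, adjusted p = 0.557). None of 16 other fatty acid synthesis genes and none of 5 genes of SREBP processing passed in any comparison by limma. At an unadjusted p under 0.05 there were 3 and 0 of them in beta6 null against wild type (11.5% of all features). There were 1 and 0 between beta6 null with TGFb1 and beta6 null (15%), and 0 of either with TGFb1 against wild type (6.29%).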

How the data were processed

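The authors deposited 1 log2 ratio per probe and array in a series table. The base of the logarithm is taken as 2, because values as large as those deposited would on base 10 exceed a 16-bit scanner. The authors' background correction, normalization and dyes are not given in the sources used here. Array medians, as deposited, were -0.047 to 0.029. Of 17225 probes, 18 control spots were left out, 13972 carried 1 symbol in the platform annotation, 13 several, and 3222 were not listed. Each array was centred on its median, probes of 1 gene were averaged, and a feature was tested where every group had a minimum of 3 values (13285). With limma 3.58.1 in R 4.3.3 the 3 group means were estimated from all 15 arrays at once, with Benjamini-Hochberg adjustment over all features and a threshold of 0.05. Steps were tested on simulated data. The 35 genes and the lists were chosen with earlier results of these data known. Named genes are all 35, the called genes of the related lists, every measured gene of the further sterol list, Mmp12 and Xist. The cell markers named were chosen after their values were seen. For promoters, RefSeq windows of 250 bases before to 50 after a start were searched in the part before the start. The 27 alternatives are summarised in the closing section.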

Additional observations from a re-analysis of the deposited data

Results flagged for a closer look

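In 12 of 81 checked groups of 4 or 5 arrays, 1 array lay apart from the others of its group by Dixon's criterion, which by chance flags about 1 in 20 groups. Of the 12, 5 were on beta6 null replicate 1, 5 on wild type replicate 2 and 2 on beta6 null with TGFb1 replicate 1. The first 2 arrays have the widest values of the series, and no cause was tested. On beta6 null replicate 1, Mvd was high at 3.17, while Tm7sf2 (-5.89), Nsdhl (-6.15), Scd1 (-1.16) and Fads1 (-4.39) were low. On wild type replicate 2, Nsdhl (-3.75), Srebf1 (-2.42), Acss2 (-0.63), Elovl5 (-3.83) and Me1 (-2.12) were low. On beta6 null with TGFb1 replicate 1, Mvd (-0.45) and Elovl5 (-1.70) were low. All are log2 ratios.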

How the results depend on the processing

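Over 27 alternatives, of which 15 leave out 1 array, no called value reversed. The count of called genes of 29 in beta6 null minus wild type was 0 to 1 over the leave-one-out fits, 1 after quantile normalization, with equal spread, on features with values on all 15 arrays, with the title suffix as a block and without wild type 2 and beta6 null 1, and 2 with array weights. In beta6 null with TGFb1 minus beta6 null it was 1 to 2 over the leave-one-out fits, 0 after quantile normalization, with equal spread and with the Xist level as a covariate, 3 without wild type 2 and beta6 null 1, and 4 with array weights. With the Xist covariate the fatty acid median was -0.91 in the first comparison and 0.85 in the second. The median of the fatty acid branch in beta6 null minus wild type changed sign without 1 array (-0.38 to 0.11), and was also above 0 after quantile normalization (0.03), with equal spread (0.01), on features with values on all 15 arrays (0.11), with the title suffix as a block (0.05) and without both beta6 null 4 and beta6 null with TGFb1 5 (0.11). Its median in beta6 null with TGFb1 minus wild type ran from 0.04 to 0.69 without 1 array. Within groups, the branch median of single arrays had an SD of 0.50 over 8 sterol genes and 0.55 over 4 fatty acid genes. These are the genes with a value on all 15 arrays. Most of the fitted medians, taken over 14 and 12 genes, were smaller in size. The SD describes single arrays and is not the error of a difference between group means. A difference changed sign without being called in either fit for 15, 12 and 11 genes in the 3 comparisons. The fits without 1 array, with array weights or with the covariate also change how many features pass. No paired analysis was possible because no label pairs the samples and replicate numbers only name them. The array number and missing spots limit precision.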
